A study of Mus musculus with 8 samples.

Results

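The genes described are 55 of the 11783 rows of the deposited expression table. They were chosen by gene symbol alone and encode the heat shock proteins of the HSP70, HSP110, HSP90 and small HSP families, the mitochondrial chaperonin, the cytosolic chaperonin CCT and the J-domain co-chaperones. The main chaperones of the endoplasmic reticulum (Hspa5, Dnajb9, Dnajb11, Dnajc3 and Dnajc10) and names marked as pseudogenes were left out. By family there were 7 HSP70 genes, 3 HSP110 genes, 2 HSP90 genes, 4 small HSP genes, 2 mitochondrial chaperonin genes, 8 CCT genes, 4 DNAJA genes, 6 DNAJB genes and 19 DNAJC genes. Although most of these proteins work in the cytosol, Hspa9, Hspd1, Hspe1 and some J proteins act in mitochondria, and Hspa13 is found in the secretory pathway. All 55 are called chaperone genes below for short, although some, such as Hspb11 and Dnajc24, are known for other work.

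RNA-seq was done on granulosa cells, the somatic cells around the oocyte, taken from dissociated C57BL/6 mouse ovaries on postnatal day 1 (PND1) or 4 (PND4). Each age has 4 libraries. The labels name no genotype, transgene, treatment or sort, and do not tie a library to one animal, a pool or a litter, so the p-values below measure the spread between libraries, which may be technical. Values are FPKM (fragments per kilobase of transcript, scaled to the mapped fragments of the library), and the read depth behind them is unknown.

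Molecular chaperones bind unfolded or partly folded proteins. HSP70 proteins grip exposed stretches of a client in a cycle driven by ATP, in which J-domain proteins deliver the client and start hydrolysis and HSP110 proteins release the nucleotide. HSP90 takes over clients that are nearly folded, among them kinases and the steroid hormone receptors through which granulosa cells respond to hormones. CCT is a double ring built of 8 different subunits that folds actin and tubulin, and the HSP60 and HSP10 pair does similar work inside mitochondria. Many of these genes have a steady level in unstressed cells, while a smaller group is switched on by heat shock factor 1 after stress, including the stress of taking a tissue apart.

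None of the chaperone genes passed the test between the ages. The comparison was made with limma on log2(FPKM + 1) over 10756 genes, and 54 of the 55 genes had enough signal to be tested (at least 1 FPKM in at least 4 libraries). Among these 54, 0 had an adjusted p under 0.05, the smallest being 0.740 for Cct7 and Hspa9, while over all genes 1 passed (0.00930%). The authors' deposited table gave a smallest q of 0.532 among the same genes. An unadjusted p under 0.05 was had by 9 of the 54, with 9 higher and 0 lower at PND4, beside 4.06% of all genes higher and 1.84% lower. With 1 library left out, the count of genes higher at an unadjusted p under 0.05 ran from 3 (without PND1 replicate 3) to 8. In those fits 5.22% to 6.75% of all genes had such a p in either direction. By the authors' deposited table, 9 of the 55 genes had a p under 0.05 and 9 of these were higher at PND4. That set held Dnajc13, which was not tested here, and left out Hspb11. The smallest q over all rows of the authors' comparison was 0.107, so no row had a q under 0.05. Both comparisons used the same libraries, so the equal counts are not independent. In bulk RNA a difference in the number of cells of a type and a difference in RNA per cell cannot be told apart.

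The differences were small and mostly of one sign. Of the 54 genes 44 had a log2 difference (PND4 minus PND1) above 0 and 10 below, beside 60.3% above 0 over all genes. Their median log2 difference was 0.16, and that of all genes 0.08. The median of all genes was 0.03 without PND1 replicate 1 and 0.14 without PND4 replicate 1, and that of the chaperone genes then 0.13 and 0.21. In 5 genes (Cct3, Cct4, Cct7, Hspa9 and Hspd1) all 4 PND4 libraries lay above all 4 PND1 libraries, which is 5 of 54 beside 3.16% of all genes. The reverse order was found in 0 of the 54, beside 1.08% of all genes. Highly expressed genes had this order more often. Of the 1150 genes with a mean of at least 50 FPKM outside the mitochondrial genome, a limit chosen after the values were seen, 7.39% had all PND4 libraries on top, as did 5 of the 17 chaperone genes at that level.

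The size of these differences depended on the scaling. Entries of the mitochondrial genome held a share of the listed FPKM of 29.0% ± 1.78 (SD, n = 4) in the PND1 libraries and 24.5% ± 3.31 in those of PND4, with 29.4% in PND4 replicate 1 and 22.4% to 23.4% in the other PND4 libraries. Rescaling without those entries, an alternative chosen after the data were seen, left a median of 0.06 for all genes and 0.14 for the chaperone genes. With it 42 of the 54 were above 0, beside 58.8% of all genes, and 6 had an unadjusted p under 0.05, beside 5.08%. After median-of-ratios scaling all genes had a median of 0.01 and that of the chaperone genes 0.08. Then 37 of the 54 were above 0 and 17 below, beside 51.2% above 0 over all genes. An unadjusted p under 0.05 was left to 1 of the 54, Hspb11, beside 5.23% of all genes. With that scaling Cct7, Hsp90aa1 and Hspa9 were the 3 genes with every PND4 library on top, beside 1.74% of all genes. With upper-quartile scaling only Cct7 and Hsp90aa1 had this order, beside 1.69%. After rescaling without the mitochondrial entries the genes with this order were Cct3, Cct4, Cct7 and Dnajc24, beside 2.58%. As deposited and in each of these scalings 37 of the 54 chaperone genes lay above the median of all genes. The plot of differences shows the estimate and interval of each gene.

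**Figure D1:**
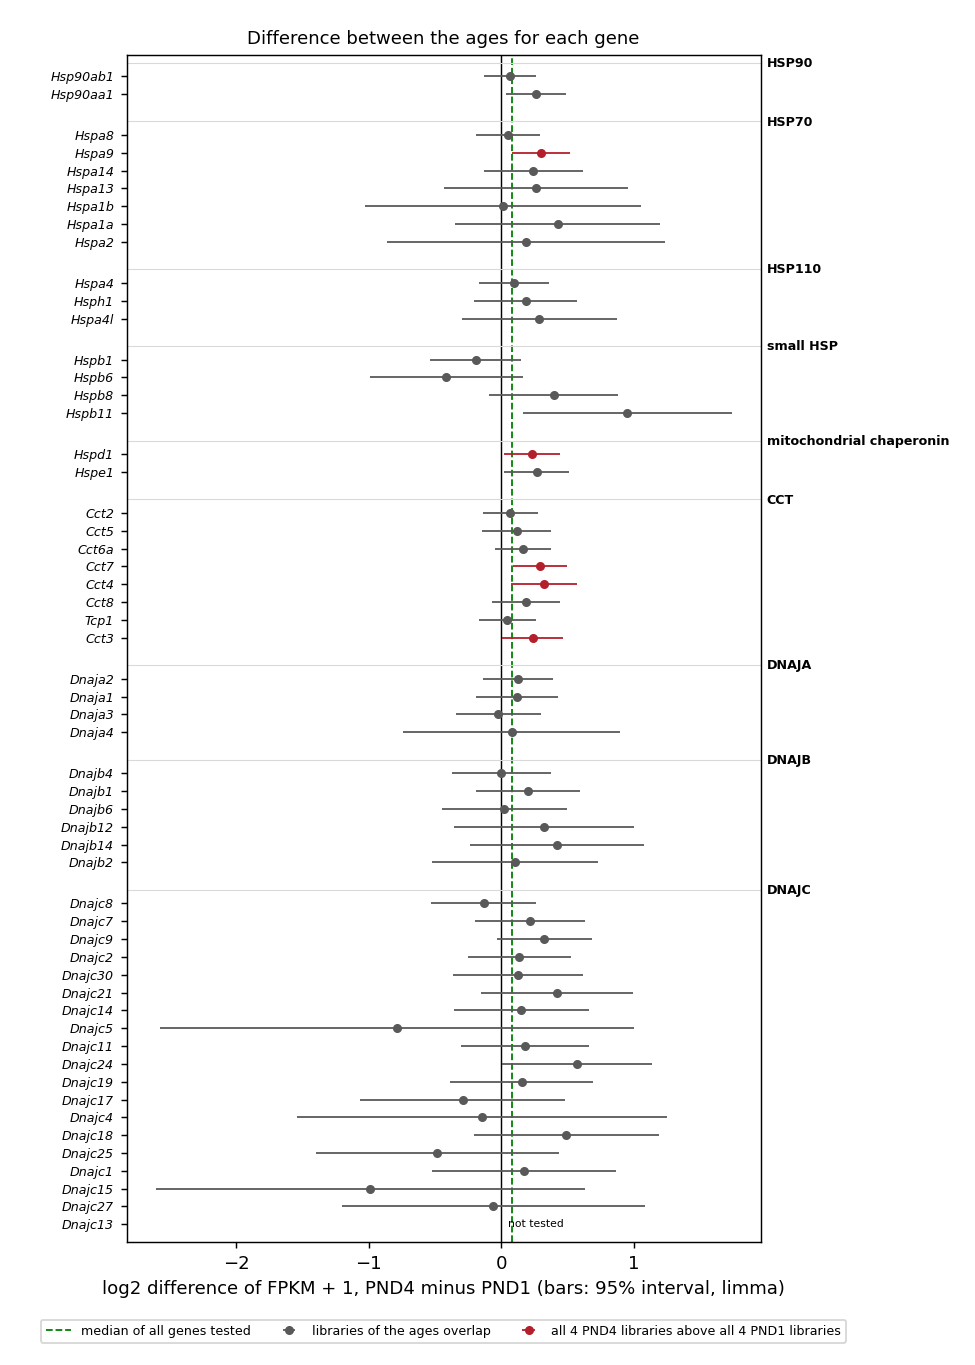
Log2 difference of FPKM + 1 between PND4 and PND1 (x axis) for each gene (rows, grouped by family), with the 95% interval from limma and n = 4 libraries per age. Of the 54 estimates 44 lie to the right of 0, and the 5 genes whose libraries do not overlap are drawn in red. The dashed line is the median of all genes tested, 0.08.

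The levels of the family spanned most of the range of the table. Hsp90ab1 had the highest mean, 754 FPKM over the 8 libraries, above 99.6% of all rows, and Hspa8 followed with 594 FPKM. Dnajc13 had the lowest, 0.835 FPKM. Summed over the 55 genes the level was 4348 ± 125 FPKM at the earlier age and 4760.3 ± 125 FPKM at the later one. That sum made up 1.27% ± 0.0709 of the FPKM outside the mitochondrial entries at PND1 and 1.37% ± 0.0569 at PND4. CCT genes gave the largest family sum, 1335 ± 48.4 and 1490.4 ± 85.9 FPKM, ahead of HSP90 genes with 991 ± 47.2 and 1076 ± 59.6 FPKM and HSP70 genes with 868 ± 57.2 and 954 ± 52.8 FPKM. The 19 DNAJC genes together reached 238 ± 18.9 and 251 ± 20.8 FPKM.

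**Figure D2:**
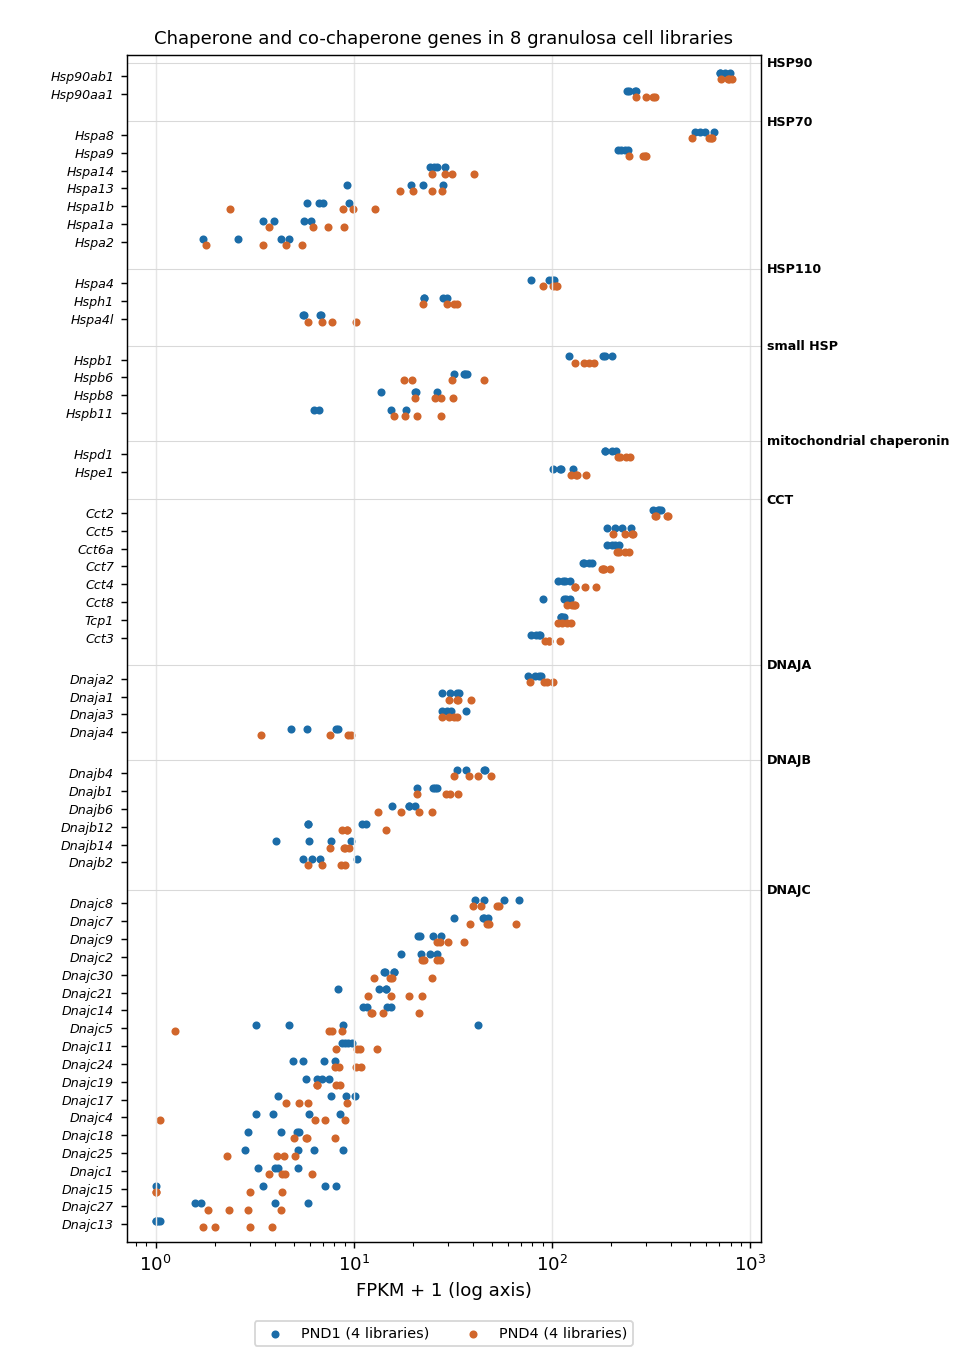
FPKM + 1 on a log axis (x) of the 55 genes (rows, grouped by family and ordered by mean), with 1 point per library, 4 at PND1 in blue and 4 at PND4 in orange. The abundant genes of the HSP90, HSP70 and CCT families have narrow clouds, and the low DNAJC genes have wide ones, with single points far away for Dnajc5 and Dnajc4.

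Hspa8 encodes the constitutive cytosolic HSP70, the general folding chaperone that also strips clathrin from vesicles. It stood at 527, 659, 591 and 557 FPKM in PND1 replicates 1 to 4 and at 640.1, 643, 625 and 511 FPKM in PND4 replicates 1 to 4. The ages overlapped over their whole range, and the lowest and highest libraries were PND4 replicate 4 and PND1 replicate 2. Between the ages Hspa8 differed by 0.05 on the log2 scale (95% interval -0.19 to 0.29), or by -0.03 with median-of-ratios scaling.

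Hspa1a and Hspa1b, the HSP70 genes induced by heat and by proteotoxic stress, were low. Hspa1a stood at 2.47, 2.97, 4.59 and 5.12 FPKM at PND1 and at 2.72, 5.24, 7.91 and 6.42 FPKM at PND4. For Hspa1b the values were 6.01, 4.80, 5.72 and 8.50 FPKM at PND1 and 1.36, 8.98, 11.9 and 7.83 FPKM at PND4. Both genes were highest in PND4 replicate 3, and the ages overlapped in both. Hspa1a had a log2 difference of 0.43 (95% interval -0.35 to 1.20) and Hspa1b of 0.01 (-1.03 to 1.05). These are adjacent single-exon genes on chromosome 17 of GRCm38, Hspa1b from 34956436 to 34959238 and Hspa1a from 34969190 to 34972156, both on the minus strand. Their coding sequences match at 99.4% of aligned bases, so reads can be split between them and each value is uncertain. The coding sequence of Hspa8 matches that of Hspa1a at 73.9%. Between libraries Hspa8 was 31.6 to 157 times the sum of Hspa1a and Hspa1b, the largest ratio being that of PND4 replicate 1.

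The remaining HSP70 genes were lower than Hspa8. Hspa14, a ribosome-associated HSP70, ranged from 23.2 to 39.5 FPKM, and Hspa13 from 8.28 FPKM in PND1 replicate 1 to 27.3 FPKM in PND1 replicate 2. Hspa2, an HSP70 best known from spermatogenesis, stood at 1.6, 0.737, 3.73 and 3.30 FPKM at PND1 and at 0.789, 3.54, 4.47 and 2.50 FPKM at PND4, with wide overlap (log2 difference 0.19, 95% interval -0.86 to 1.24). Hspa14 and Hspa13 were named after their values were seen. All 7 HSP70 genes had log2 differences above 0, with a median of 0.24. Leaving out PND1 replicate 1 gave a median of 0.11, leaving out PND4 replicate 2 gave 0.15, and leaving out PND4 replicate 1 gave 0.38. Hspa8 and Hspa1b turned below 0 with median-of-ratios scaling (-0.03 and -0.07).

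Hspa9 encodes mortalin, the HSP70 of the mitochondrial matrix that pulls imported proteins through the inner membrane. It stood at 234, 215, 241 and 222 FPKM at PND1 and at 245, 294, 289 and 298 FPKM at PND4. Every PND4 library was above every PND1 library, PND4 replicate 1 by a small margin. With upper-quartile scaling, or rescaled without the mitochondrial entries, the ages overlapped. The log2 difference was 0.30 (95% interval 0.08 to 0.52, limma unadjusted p = 0.0119, adjusted p = 0.740), and 0.21 with upper-quartile scaling. With any 1 library left out it lay between 0.27 and 0.37.

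Hspd1 and Hspe1 encode HSP60 and HSP10, the ring and the lid of the mitochondrial chaperonin. The genes lie head to head on chromosome 1 of GRCm38, Hspd1 from 55077835 to 55088243 on the minus strand with up to 12 exons and Hspe1 from 55088132 to 55091307 on the plus strand with up to 4, and their spans share 112 exonic bases. Hspd1 stood at 186, 185, 201 and 209.5 FPKM at PND1 and at 220.1, 247, 237 and 214 FPKM at PND4, without overlap. With median-of-ratios or upper-quartile scaling, or rescaled without the mitochondrial entries, its ages overlapped. Hspd1 had a log2 difference of 0.23 (95% interval 0.02 to 0.44, limma unadjusted p = 0.0351, adjusted p = 0.805). Hspe1 stood at 109.9, 101, 109 and 128 FPKM at PND1 and at 133, 132, 124 and 148 FPKM at PND4, where PND1 replicate 4 lay above PND4 replicate 3. Hspe1 had one of 0.27 (95% interval 0.02 to 0.51, limma unadjusted p = 0.0353, adjusted p = 0.805). The ratio of Hspd1 to Hspe1 was 1.75 ± 0.103 at PND1 and 1.72 ± 0.215 at PND4. Summed, the pair stood at 307 ± 22.2 and 364 ± 10.48 FPKM. A row for the processed pseudogene Hspd1-ps3 held 21.5 ± 3.61 and 21.4 ± 2.37 FPKM, and GENCODE M21 lists 5 pseudogenes named after Hspd1 and 6 after Hspe1, which can take up reads of the parent genes.

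The promoter windows of both genes cover the same stretch of DNA. The sequence below is the RefSeq window of Hspd1 on GRCm38.p6, from 250 bases before a start site to 50 after it, at chr1:55087883-55088182 on the minus strand. It is shown because it holds the longest heat shock element found, the binding motif of heat shock factors, and because 285 of its bases are shared with the window of Hspe1 (chr1:55087898-55088197, plus strand). Capitals mark the element, 18 bases from -144 to -127 with the start site at 0.
Hspd1: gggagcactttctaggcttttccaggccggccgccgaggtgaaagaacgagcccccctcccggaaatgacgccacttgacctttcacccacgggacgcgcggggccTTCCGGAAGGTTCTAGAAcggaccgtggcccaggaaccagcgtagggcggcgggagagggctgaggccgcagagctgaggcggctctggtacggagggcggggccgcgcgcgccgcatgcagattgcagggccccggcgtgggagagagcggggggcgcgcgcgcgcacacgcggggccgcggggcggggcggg
A heat shock element was counted where GAANNTTCNNGAA or its reverse complement TTCNNGAANNTTC occurred, N being any base, and longer runs were joined. It was found in the windows of 4 of the 44 chaperone genes with a RefSeq window (9.09%), beside 0.662% of the 27025 genes in that table. The 4 genes were Hspd1, Hspe1, Hsph1 and Dnajb6, the first 2 sharing one site. No element was found in the windows of Hspa1a, Hspa1b, Dnajb1, Hspb1 and Hspb8. Hspa8, Hsp90aa1 and Hsp90ab1 were among the 11 genes without a window and were not searched. The search took only this exact spacing in 300 bases, so a gene without a match can still hold an element. The CCAAT box, as CCAAT or its reverse complement ATTGG, was found in 40.9% of the 44 genes and in 41.1% of all genes. Such a match describes letters and is not a measured binding site.

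HSP90 is encoded by Hsp90ab1, the constitutive form, and Hsp90aa1, the form that stress can induce. Hsp90ab1 stood at 704, 707, 747 and 791 FPKM at PND1 and at 774, 785, 810 and 715 FPKM at PND4. The ages overlapped, and the log2 difference was 0.06 (95% interval -0.13 to 0.26) and -0.01 with median-of-ratios scaling. Hsp90aa1 (chromosome 12 from 110690605 to 110702728, minus strand) stood at 246, 263, 238 and 267 FPKM at PND1 and at 265, 324, 333 and 299 FPKM at PND4. Only PND1 replicate 4 and PND4 replicate 1 crossed. Its log2 difference was 0.26 (95% interval 0.04 to 0.49, limma unadjusted p = 0.0259, adjusted p = 0.805), and 0.18 with upper-quartile scaling. Hsp90ab1 exceeded Hsp90aa1 by a factor of 2.91 ± 0.186 at PND1 and 2.54 ± 0.2504 at PND4, and PND4 replicate 1, with 2.92, kept a ratio of the PND1 kind.

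Among 21 partners of HSP90, a list that also holds the HSP90 of the endoplasmic reticulum and that of mitochondria, 0 passed the test. Of these, 16 had log2 differences above 0 and 5 below, with a median of 0.25. Ptges3, the p23 co-chaperone that stabilises the closed HSP90 dimer, was among the most abundant with 129.7 ± 5.77 and 159 ± 29.1 FPKM. Fkbp4, the immunophilin that carries steroid receptors on HSP90, stood at 135, 129.5, 116 and 140.3 FPKM at PND1 and at 147.2, 147.1, 162 and 170.02 FPKM at PND4, without overlap. For Fkbp4 the log2 difference came to 0.27 (limma unadjusted p = 0.0273, adjusted p = 0.805). Ppid, named after its values were seen, was also without overlap (log2 difference 0.42, limma unadjusted p = 0.00746, adjusted p = 0.740). Fkbp4 and Ppid were the 2 of the 21 with every PND4 library on top, beside 3.16% of all genes.

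The HSP110 proteins Hspa4 and Hsph1 exchange nucleotide on HSP70. Hspa4 stood at 78.02, 101, 95.97 and 99.9 FPKM at PND1 and at 104, 106, 100.03 and 89.9 FPKM at PND4, with overlap and with PND1 replicate 1 lowest (log2 difference 0.10, 95% interval -0.17 to 0.36). Hsph1, which is induced by heat, stood at 21.8, 21.6, 27.3 and 28.6 FPKM at PND1 and at 21.5, 32.5, 31.2 and 28.5 FPKM at PND4 (log2 difference 0.18, 95% interval -0.20 to 0.57). Its 3 lowest libraries, PND1 replicates 1 and 2 and PND4 replicate 1, came from both ages. The third gene of the family, Hspa4l, named here to complete it, ranged from 4.55 to 9.24 FPKM. Total HSP70 was 7.05 ± 0.598 times total HSP110 at PND1 and 7.06 ± 0.0807 times at PND4. The Hsph1 window (chr5:149636287-149636586, minus strand) is shown for its heat shock element, in capitals, which lies after the start site from 36 to 48. Counted from the start site of another Hsph1 window, the element lies from 15 to 27.
Hsph1: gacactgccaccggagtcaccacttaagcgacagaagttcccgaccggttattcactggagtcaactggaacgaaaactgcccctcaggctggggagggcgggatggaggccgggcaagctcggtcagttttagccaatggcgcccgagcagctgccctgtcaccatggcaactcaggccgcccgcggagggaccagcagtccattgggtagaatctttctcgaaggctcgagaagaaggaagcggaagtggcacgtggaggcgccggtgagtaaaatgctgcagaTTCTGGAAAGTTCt

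Of the 13 genes for other regulators of HSP70, 9 had log2 differences above 0 and 4 below, with a median of 0.09 and 0 past the test. The most abundant were Stub1, the ubiquitin ligase that marks chaperone clients, with 77.9 ± 8.005 and 82.8 ± 6.17 FPKM, and St13, which keeps HSP70 in its closed state, with 59.0 ± 4.33 and 70.5 ± 5.25 FPKM. The libraries of St13 did not overlap between the ages (log2 difference 0.25, limma unadjusted p = 0.0485, adjusted p = 0.805). Nor did those of Bag1, named after its values were seen (log2 difference 0.32, limma unadjusted p = 0.0344, adjusted p = 0.805). These were 2 of the 13, beside 3.16% of all genes with every PND4 library on top.

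The 8 subunits of CCT all had log2 differences above 0, from 0.04 for Tcp1 to 0.32 for Cct4, with a median of 0.17, and 0 passed the test. The median was 0.09 with upper-quartile scaling, in which Tcp1 and Cct2 turned below 0 (-0.04 and -0.02), as they also did with median-of-ratios scaling (-0.03 and -0.01). Cct7, the eta subunit (chromosome 6 from 85451514 to 85468475, plus strand, up to 12 exons), stood at 143, 159, 145 and 154 FPKM at PND1 and at 182, 181, 179 and 195 FPKM at PND4. There was no overlap, and each age kept within a narrow band. Its log2 difference was 0.29 (95% interval 0.09 to 0.50, limma unadjusted p = 0.00873, adjusted p = 0.740), and it lay between 0.27 and 0.32 with any 1 library left out.

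Cct4, the delta subunit (chromosome 11 from 22990519 to 23003780, plus strand), stood at 122, 115, 107 and 113 FPKM at PND1 and at 129.9, 131, 147 and 167 FPKM at PND4. The PND4 libraries spread more widely than those of PND1 and did not overlap them (log2 difference 0.32, 95% interval 0.07 to 0.57, limma unadjusted p = 0.0159, adjusted p = 0.752). Cct3, the gamma subunit (chromosome 3 from 88297116 to 88321767, plus strand), stood at 85.2, 85.8, 77.99 and 82.6 FPKM at PND1 and at 95.98, 91.5, 95.6 and 109 FPKM at PND4. It too was free of overlap (log2 difference 0.24, 95% interval 0.01 to 0.47, limma unadjusted p = 0.0447, adjusted p = 0.805). With median-of-ratios or upper-quartile scaling the ages overlapped in both Cct4 and Cct3.

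In the other 5 subunits the ages overlapped. Cct2, the beta subunit, stood at 344, 347, 323 and 356 FPKM at PND1 and at 337, 332, 387 and 381 FPKM at PND4 (log2 difference 0.07, 95% interval -0.14 to 0.27). Cct5, the epsilon subunit, stood at 224, 251, 209 and 189.7 FPKM at PND1 and at 256, 203, 234 and 253 FPKM at PND4 (0.12, 95% interval -0.15 to 0.38). Cct6a, the zeta subunit, stood at 188, 217, 207 and 201 FPKM at PND1 and at 234, 214, 218 and 245 FPKM at PND4 (0.16, 95% interval -0.05 to 0.37). In Cct6a 3 of the 4 PND4 libraries were above all of PND1. Cct8, the theta subunit, stood at 89.9, 117, 123 and 114 FPKM at PND1 and at 129.6, 125, 129 and 119 FPKM at PND4 (0.19, 95% interval -0.07 to 0.45), with PND1 replicate 1 far below the rest. Tcp1, the alpha subunit, was the steadiest at PND1, with 111, 114, 111 and 110.5 FPKM, and stood at 118, 106, 112 and 125 FPKM at PND4 (0.04, 95% interval -0.17 to 0.26).

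The subunits join in equal numbers in the ring, but their transcript levels per length were unequal. The most abundant subunit gene had 3.49 to 4.31 times the level of the least abundant one. Cct2 had rank 1, Cct7 rank 4 and Cct3 rank 8 in 8 of 8 libraries, and Cct5 and Cct6a shared ranks 2 and 3. Cct2 made up 22.7% to 27.0% of the summed CCT level and Cct3 between 5.99% and 6.84%. The share of Cct7 was 10.9% to 11.7% at PND1 and 11.9% to 13.1% at PND4, and that of Tcp1 was 8.11% to 8.51% and 7.44% to 7.99%, so that neither subunit's shares overlapped between the ages. A share within the complex does not depend on how a library was scaled. These 2 subunits were singled out after their values were seen, and their shares were not tested.

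**Figure D3:**
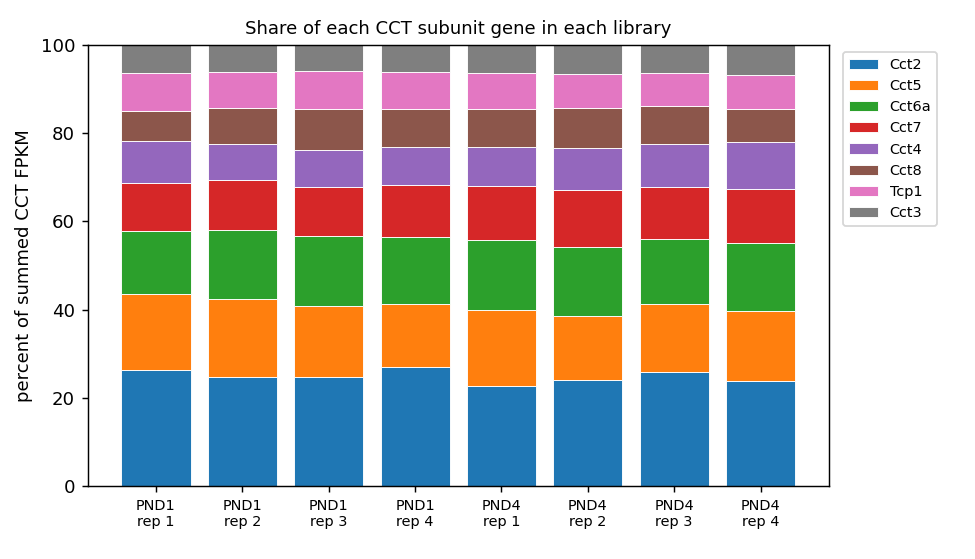
Share of each CCT subunit gene in the summed CCT FPKM (y axis, percent) of each of the 8 libraries (x axis). Cct2 is the largest block, between 22.7% and 27.0%, and Cct3 the smallest, and the order of the blocks hardly differs between libraries.

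Prefoldin hands unfolded actin and tubulin to CCT. Of 11 genes for prefoldin subunits and other CCT partners, 10 had log2 differences above 0 and 1 below, with a median of 0.24 and 0 past the test. Pfdn5 stood at 31.4 ± 6.27 and 42.1 ± 7.53 FPKM (log2 difference 0.42, limma unadjusted p = 0.0433, adjusted p = 0.805), and Pfdn1 at 33.4 ± 6.83 and 39.2 ± 3.48 FPKM.

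The plot of the 9 genes with an unadjusted p under 0.05 gives their values side by side.

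**Figure D4:**
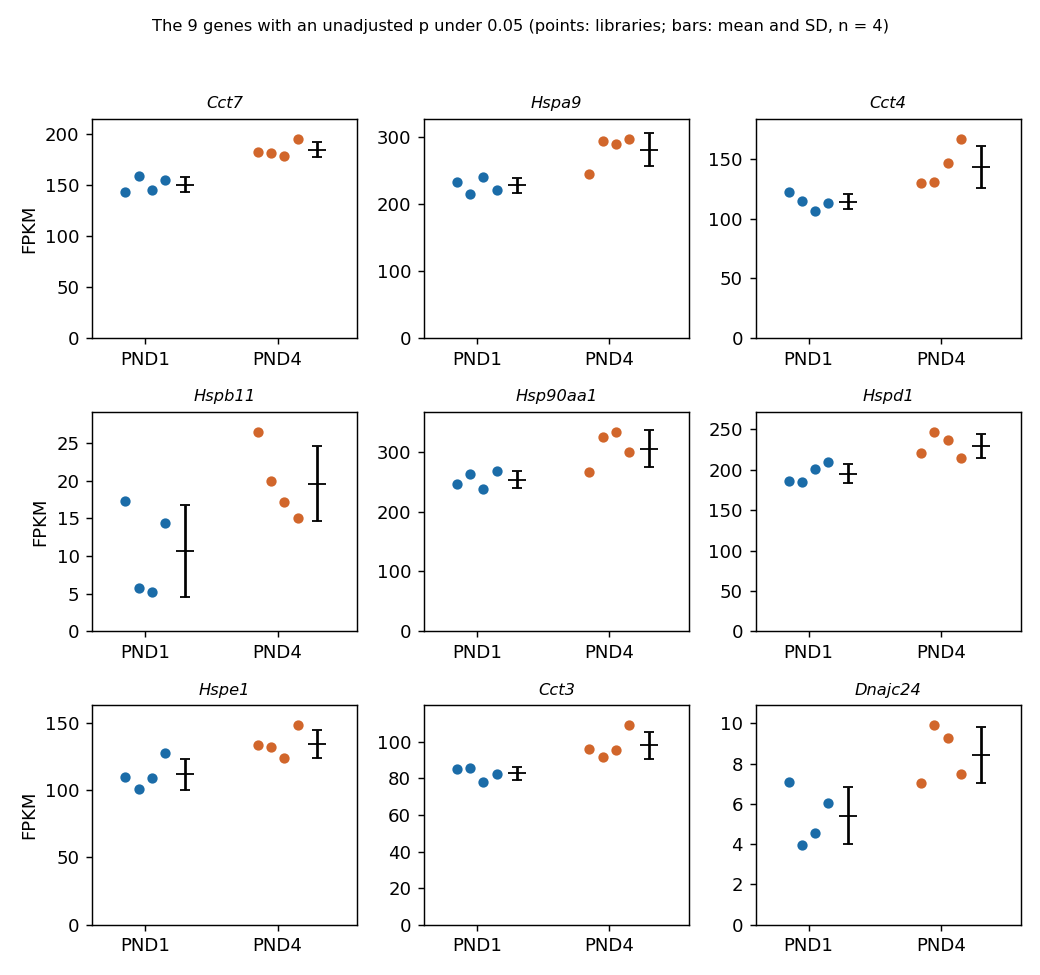
FPKM (y axis, from 0) at PND1 and PND4 of the 9 chaperone genes with an unadjusted p under 0.05 in limma, none of which passed adjustment, with 1 point per library and the mean and SD (n = 4). The points of Cct7, Hspa9, Cct4, Hspd1 and Cct3 do not overlap between the ages, and those of Hspb11 and Dnajc24 spread most for their mean.

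Small heat shock proteins hold unfolding proteins in solution without using ATP, and the log2 differences of the 4 genes had mixed signs, 2 above 0 and 2 below, with 0 past the test. Hspb1, which encodes HSP25 and also binds actin filaments, was the most abundant, with 180.4, 121, 184 and 201 FPKM at PND1 and 145, 131, 164 and 153 FPKM at PND4. PND1 replicate 2 was the lowest library and the other PND1 libraries were the highest (log2 difference -0.19, 95% interval -0.53 to 0.15). Without PND1 replicate 2 the log2 difference of Hspb1 was -0.35. Hspb6, a small HSP of muscle, stood at 35.7, 31.1, 36.3 and 35.2 FPKM at PND1 and at 16.97, 44.7, 30.3 and 18.6 FPKM at PND4, so the PND4 libraries lay on both sides (log2 difference -0.41, 95% interval -0.99 to 0.17).

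Hspb8, the partner of BAG3 in the disposal of damaged proteins, stood at 19.6, 12.8, 19.3 and 25.5 FPKM at PND1 and at 19.3, 26.6, 30.7 and 24.6 FPKM at PND4 (log2 difference 0.40, 95% interval -0.09 to 0.88). BAG3 itself is encoded by Bag3, which had 24.9 ± 2.36 FPKM at PND1 and 34.3 ± 9.02 FPKM at PND4. Hspb11, which is named as a small HSP and encodes a subunit of the ciliary transport complex IFT-B, had the largest log2 difference above 0 of the 54 genes. It stood at 17.3, 5.71, 5.29 and 14.4 FPKM at PND1 and at 26.5, 19.9, 17.1 and 14.99 FPKM at PND4. PND1 replicates 2 and 3 were low, while replicates 1 and 4 reached the PND4 range (log2 difference 0.95, 95% interval 0.16 to 1.74, limma unadjusted p = 0.0222, adjusted p = 0.805). Hspb8, Bag3 and Hspb11 were named after their values were seen.

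J-domain proteins choose the clients and the place of action of HSP70. There were 29 of them, 28 tested, with 20 log2 differences above 0 and 8 below, a median of 0.13 and 0 past the test. Total HSP70 was 1.78 ± 0.156 times total J protein at PND1 and 1.84 ± 0.149 times at PND4. In the DNAJA family, the closest to the bacterial DnaJ, Dnaja2 stood at 81.5, 74.8, 87.4 and 85.5 FPKM at PND1 and at 76.3, 90.5, 93.5 and 101 FPKM at PND4 (log2 difference 0.13, 95% interval -0.13 to 0.39). Dnaja1 stood at 32.1, 26.8, 33.0 and 29.6 FPKM at PND1 and at 29.3, 32.6, 38.2 and 32.3 FPKM at PND4 (0.12, 95% interval -0.19 to 0.43). In both genes the ages overlapped. Dnaja3, the mitochondrial J protein that works with mortalin, had 30.4 ± 4.00 and 29.9 ± 2.32 FPKM, a log2 difference of -0.02 beside the 0.30 of Hspa9. Dnaja3 was named after its values were seen.

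Dnajb1, the heat-induced partner of HSP70 in breaking up aggregates, stood at 20.0, 24.2, 25.4 and 24.7 FPKM at PND1 and at 19.9, 28.2, 32.5 and 29.6 FPKM at PND4 (log2 difference 0.20, 95% interval -0.19 to 0.59). Replicate 1 of each age was the lowest, and the other PND4 libraries were above all of PND1. Dnajb4 was the most abundant DNAJB gene, with 32.4, 44.9, 44.7 and 36.0 FPKM at PND1 and 31.2, 41.4, 37.4 and 48.6 FPKM at PND4, where the log2 difference was 0.00 (95% interval -0.38 to 0.38). Dnajb6, which keeps aggregation-prone proteins soluble, stood at 14.7, 19.3, 18.0 and 18.0 FPKM at PND1 and at 12.3, 20.4, 16.4 and 23.8 FPKM at PND4 (0.02, 95% interval -0.45 to 0.49). Its window at chr5:29735648-29735947, plus strand, holds a heat shock element of 13 bases from -46 to -34, in capitals. Counted from the start site of another Dnajb6 window, the element lies from -127 to -115.
Dnajb6: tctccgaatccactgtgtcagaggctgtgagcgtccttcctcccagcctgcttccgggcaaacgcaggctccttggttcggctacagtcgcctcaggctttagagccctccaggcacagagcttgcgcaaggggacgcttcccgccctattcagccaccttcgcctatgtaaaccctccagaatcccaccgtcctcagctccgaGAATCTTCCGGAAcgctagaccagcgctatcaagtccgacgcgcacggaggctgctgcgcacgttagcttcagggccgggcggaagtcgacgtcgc
The remaining 3 DNAJB genes, Dnajb12, Dnajb14 and Dnajb2, ranged from 3.06 to 13.5 FPKM, and all 6 genes of the family had log2 differences above 0.

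The DNAJC genes share the J domain and little else. Dnajc8, a J protein of the spliceosome, stood at 67.7, 44.6, 40.0 and 56.3 FPKM at PND1 and at 39.2, 43.2, 53.5 and 51.7 FPKM at PND4. The ages overlapped, with PND1 replicate 1 highest (log2 difference -0.13, 95% interval -0.53 to 0.26). Dnajc7, which binds both HSP70 and HSP90, stood at 31.1, 47.0, 44.4 and 44.1 FPKM at PND1 and at 45.9, 65.1, 47.2 and 37.6 FPKM at PND4 (0.22, 95% interval -0.20 to 0.63). Of the 18 tested DNAJC genes 11 had log2 differences above 0 and 7 below, with a median of 0.14, which was 0.08 without PND4 replicate 2 and 0.09 without PND1 replicate 2.

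Further DNAJC genes were named after their values were seen. Dnajc24, a factor of diphthamide synthesis on elongation factor 2, stood at 7.09, 3.95, 4.57 and 6.05 FPKM at PND1 and at 7.04, 9.89, 9.28 and 7.47 FPKM at PND4. PND1 replicate 1 just exceeded PND4 replicate 1 (log2 difference 0.57, 95% interval 0.00 to 1.14, limma unadjusted p = 0.0487, adjusted p = 0.805). Dnajc9, a histone chaperone, stood at 22.9 ± 3.08 and 28.9 ± 4.301 FPKM (log2 difference 0.32, 95% interval -0.04 to 0.68). Dnajc13, an endosomal J protein, was listed at 0, 0.0504, 0 and 0.0345 FPKM at PND1 and at 0.730, 0.989, 2.88 and 2.00 FPKM at PND4. It was the 1 gene left untested by the filter on low values, and with no filter its adjusted p was 0.813.

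In some low DNAJC genes single libraries stood far from the rest, and Dnajc5 and Dnajc15 are given here as genes chosen after their values were seen. Dnajc5, which encodes the cysteine string protein of secretory vesicles, stood at 7.81, 2.21, 41.6 and 3.71 FPKM at PND1 and at 0.253, 6.79, 6.53 and 7.70 FPKM at PND4. Its log2 difference was -0.79 (95% interval -2.58 to 1.00), and with 1 library left out it ran from -1.27 to -0.02. Dnajc15, a J protein of mitochondrial import, was listed at 0 in PND1 replicate 1 and PND4 replicates 1 and 3 and at 2.00 to 7.11 FPKM elsewhere (log2 difference -0.99, 95% interval -2.61 to 0.63). An exact 0 in such a table can be a failed estimate.

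Heat shock factor 1, the main activator of the inducible genes, is encoded by Hsf1, with 9.23 ± 4.24 and 11.7 ± 2.61 FPKM, and Hsf2 had 5.51 ± 1.27 and 6.23 ± 0.833 FPKM. Hsbp1, whose product binds and restrains heat shock factor 1, had 70.1 ± 8.79 and 70.7 ± 6.57 FPKM. All 3 had log2 differences above 0, with a median of 0.16 and 0 past the test. A list of 21 heat-inducible genes, of which 14 are among the 55, had a median log2 difference of 0.23 and 0 past the test. In it 18 differences lay above 0 and 3 below, beside 60.3% above 0 over all genes. At an unadjusted p under 0.05 in limma 5 were higher and 1 lower, beside 4.06% and 1.84% of all genes. The lower one was Cryab, with 42.2 ± 2.75 and 31.1 ± 11.9 FPKM (log2 difference -0.49, limma unadjusted p = 0.0424, adjusted p = 0.805). Immediate-early genes are switched on within minutes when tissue is dissociated. Of the 18 with a row, 7 were above 0 and 11 below, with a median of -0.07 and 0 past the test. Their sum ran from 738 to 921 FPKM at PND1 and from 695 to 865 FPKM at PND4. The 2 most abundant were Ier3, with 190.4 ± 31.1 and 151 ± 17.4 FPKM, and Jund, with 159 ± 32.1 and 161 ± 32.5 FPKM.

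Markers of cell types were read in the same libraries. Of 19 granulosa markers 17 had a row, among them Foxl2, Wnt4 and Krt18. Their sums ran from 975 to 1443 FPKM at PND1 and from 1044 to 1401 FPKM at PND4. Krt18, with means of 500 and 487 FPKM, and Krt8, with 390 and 355 FPKM, made up most of them. Foxl2 had means of 15.9 and 17.5 FPKM. The sums mostly follow these keratins and do not measure the content of granulosa cells. Log2 differences lay above 0 in 8 of these markers and below 0 in 9, with 0 past the test. Wnt4 fell without overlap (log2 difference -0.52) and Rspo1 rose without overlap (0.56), both picked after the values were seen. The sums therefore do not show that each marker was steady. Of 15 oocyte markers 13 had a row, with sums of 15.2 to 87.5 FPKM at PND1 and 46.0 to 308 FPKM at PND4, the highest in PND4 replicate 3, and of the 12 tested 7 were higher and 5 lower at PND4. Padi6, Zp3 and Zp2 were among the higher ones (log2 differences 2.18, 2.32 and 1.85), and Figla, Dazl, Kit, Nobox and Sohlh1 were the lower ones, from -1.77 for Figla to -0.71 for Sohlh1. Of the 8 libraries PND4 replicate 3 also had the highest Hspa1a, Hspa1b, Hsp90ab1 and Hsp90aa1 values, genes picked after the values were seen. Other chaperone genes were highest elsewhere, Hspa8 in PND1 replicate 2 and Hspb1 in PND1 replicate 4. Hspd1 and Hsph1 were highest in PND4 replicate 2, and Hspa9, Hspe1, Cct4 and Cct7 in PND4 replicate 4. Stroma markers, 12 of 12 with a row, summed to 200.2 to 226 FPKM at PND1 and 221 to 285 FPKM at PND4. In 10 of them the log2 difference lay above 0 and in 2 below, the median being 0.33, and 0 passed the test. Lox, with the highest means (90.1 and 81.0 FPKM), was among those below 0 (-0.18). Dcn rose without overlap (0.83) and Tcf21 with overlap (1.27), both picked after the values were seen. Erythroid markers, 3 of 6 with a row, summed to 17.1 to 48.9 FPKM and 0.268 to 11.4 FPKM. They were Hba-a2, Hba-a1 and Hbb-bs, and all 3 were lower at PND4 without overlap. Immune markers, 5 of 10 with a row, summed to 8.82 to 28.3 FPKM and 2.92 to 65.3 FPKM, and 0 of 8 endothelial markers had a row. The highest immune sum was that of PND4 replicate 1, in which Lyz2 alone had 55.8 FPKM. The part of these cells in the chaperone values was not tested.

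Libraries also differed in how many genes they detected. The number of rows listed at 0 ran from 222 to 1234 and was highest in the libraries numbered 1, with 1234 at PND1 and 1097 at PND4. Those 2 libraries had the lowest sum of DNAJB genes, 86.3 and 83.3 FPKM, beside 101 to 126 FPKM in the other 6. That family was picked after the values were seen, and in no other family were both libraries the lowest. In PND4 replicate 1 the sums of CCT (1483 FPKM), of the mitochondrial chaperonin (354 FPKM) and of all chaperone genes (4611 FPKM) lay above every PND1 library. Without both libraries numbered 1, 0 chaperone genes passed the test. The log2 differences of Hspa9, Cct4 and Cct7 were then 0.38, 0.40 and 0.28, and that of Hspa1b was 0.54. The part of detection in these values was not tested.

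All 55 genes were found in GENCODE M21 on GRCm38. Of these, 21 share exonic bases with a gene on the opposite strand, and for 19 of them such a partner has a row of its own. Among the genes described, Cct7 shares 214 bases with Pradc1, Cct6a 452 with Psph, Cct8 192 with Usp16, Tcp1 571 with Acat3 and 141 with Mrpl18, and Hspa1a 564 with Gm20481. No source used here says whether counting was stranded, and reads in these stretches cannot be assigned with certainty. GENCODE M21 lists pseudogenes named after 7 of the 55 genes, Cct3, Tcp1, Dnaja1 and Hspa9 among them.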

How the data were processed

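The submitters' processing notes name Trim Galore, HISAT2 and the mouse build GRCm38, with no versions. Which program gave the FPKM, with which annotation, and which filter left 11783 rows was not given in the sources used here. FPKM values of 8 libraries were deposited in one table, per the file headers, with a column holding their sum (signal), which was checked against the 8 columns and not otherwise used. The authors' deposited comparison table holds 1 fold (ratio) per gene with its log2, p-value and q-value, from a test that those sources do not name.

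No counts were at hand, so the depth is unknown and the comparison (PND4 minus PND1) used limma 3.58.1 in R 4.3.3 on log2(FPKM + 1) with an intensity trend, over the 10756 rows that reached 1 FPKM in 4 or more libraries, with Benjamini-Hochberg adjustment and a threshold of 0.05. Fold changes are on that log2 scale, which understates changes of low genes. Intervals are 95% intervals from limma, and values given as mean ± SD are over 4 libraries.

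The genes and gene lists were chosen with earlier results of these data known. Named with values were genes past the test, those without overlap between ages and with an unadjusted p under 0.05, the 2 most abundant of each family, and a set of well-known chaperones. Other genes of the 55 with values are named as such in the text, or appear only among the flagged libraries or the turned signs. Partner lists outside the 55 were given by counts and medians, with values for the 2 most abundant genes and for some named after their values were seen. Heat shock factor genes and cell type markers given values fall outside these rules. Alternatives were other scalings, filters, pseudocounts, a replicate block and leaving libraries out. Gene positions come from GENCODE M21 and promoter windows from RefSeq (GRCm38.p6, 300 bases), in which 44 of the 55 genes were matched. Coding sequences, taken as the longest open reading frame of a GENCODE transcript, were aligned with Biopython 1.88. A planned search of protein sequences was not run.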

Additional observations from a re-analysis of the deposited data

Results flagged for a closer look

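In each age the highest or lowest library of each gene was compared with the other 3 on the log2 scale by Dixon's ratio, at its 95% critical value, and 7 of 110 groups held a library far from the others. Chance alone gives about 5% of groups. At PND1 both such libraries were replicate 1. Dnajc7 stood at 31.1 FPKM there beside 44.1 to 47.0 FPKM in the other libraries, and Dnajc21, a ribosome biogenesis factor, at 7.32 FPKM beside 12.4 to 13.6 FPKM. At PND4, 3 of 5 were in replicate 1. They were Hspa9 at 245 FPKM beside 289 to 298 FPKM, Dnajc5 at 0.253 FPKM beside 6.53 to 7.70 FPKM, and Dnajc4 at 0.0489 FPKM beside 5.39 to 8.08 FPKM. The remaining ones were Hspa8 in PND4 replicate 4, at 511 FPKM beside 625 to 643 FPKM, and Dnajb12 in PND4 replicate 3, at 13.5 FPKM beside 7.72 to 8.31 FPKM.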

How the results depend on the processing

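In 17 alternative settings 0 chaperone genes passed the test. Over all genes 1 passed, 0 to 1 did with 1 library left out, and 0 did without both libraries numbered 1. The count of chaperone genes higher at an unadjusted p under 0.05 was 9, and it was 1 with median-of-ratios and 1 with upper-quartile scaling. Over all genes 5.90% had such a p in either direction, and 5.23% and 5.34% under these scalings. With 1 library left out the chaperone count ran from 3 to 8, and was below 6 when replicate 2 or 3 of either age was left out. The count lower ran from 0 to 1 (Dnajc15 without PND1 replicate 1, Hspb1 without PND1 replicate 2 and Hspb6 without PND4 replicate 2). Upper-quartile scaling lowered the median log2 difference of HSP90 to 0.077, of the mitochondrial chaperonin to 0.16 and of CCT to 0.087, and the DNAJA median ran from -0.0048 to 0.13 with 1 library left out. Medians of other families moved by over 1.5 times as well, HSP110 from 0.12 (without PND4 replicate 2) to 0.31 (without PND4 replicate 1), small HSP from -0.06 (without PND1 replicate 2) to 0.21 (without PND1 replicate 4) and DNAJB from 0.09 (without PND4 replicate 3) to 0.28 (without PND4 replicate 1).

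Of 37 named genes 24 kept their sign in every setting that gave a value. The sign turned with median-of-ratios and upper-quartile scaling in Hspa8 (-0.028, -0.037), Hsp90ab1 (-0.014, -0.022), Cct2 (-0.012, -0.020), Tcp1 (-0.034, -0.043), Dnajb4 (-0.076, -0.085), Dnajb6 (-0.052, -0.060) and Hspa1b (-0.066, -0.070). Rescaling without mitochondrial entries, added after the data were seen, turned Dnajb4 (-0.015) and Hspa1b (-0.00023), and a pseudocount of 0.1 also turned Hspa1b (-0.062). Without both libraries numbered 1, also added later, the sign turned in Hspa8 (-0.026), Hspa4 (-0.011), Dnajc8 (0.081), Dnajc4 (0.64) and Dnajc25 (0.0034), and a pseudocount of 5 turned Dnajc4 (0.022). With 1 library left out the sign turned in Dnajb4 (-0.10 to 0.11), Dnajc8 (-0.25 to 0.0011), Hspa1b (-0.27 to 0.55), Hspa2 (-0.088 to 0.52), Dnajb6 (-0.11 to 0.19), Hspa13 (-0.066 to 0.47) and Dnajc4 (-0.48 to 0.56). The cause was not tested.

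Replicate numbers occur in both ages, and the deviations of same-numbered libraries correlated at 0.05, -0.01, 0.03 and 0.12. The labels do not say whether such libraries share more than a number, and correlations over all genes cannot decide it. With the replicate block 6 chaperone genes had an unadjusted p under 0.05, beside 6.39% of all genes, and 0 passed the test. The 95% interval reached a median of 0.44 to either side of the estimate for the chaperone genes, less for the abundant ones (0.09 to 0.50 around 0.29 for Cct7) and more for the low ones.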
